A study of Mus musculus with 5 samples.

Results

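The cells described here are the earliest cortical neurons in a Drop-seq series of the developing mouse cortex, those present at E11.5, counted in embryonic days. Drop-seq captures single cells in droplets with barcoded beads and counts their RNA molecules by unique molecular identifiers (UMIs). The cells were chosen by the measured UMIs of 12 genes, from the table of E11.5 cells that the authors kept as cortical. A cell of at least 500 UMIs was taken when the UMIs of 6 neuronal genes (Tbr1, Neurod2, Neurod6, Slc17a6, Mapt and Dcx) summed to 2 or more, when it had at most 1 UMI of Eomes, and when 5 radial precursor genes (Pax6, Sox2, Hes1, Hes5 and Slc1a3) summed to at most 1. This gave 205 neurons among 1414 cells, a share of 14.5% (12.7 to 16.4%, Clopper-Pearson). The other 1209 cells of the table served as the comparison.

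Cortices of wild-type CD1 mouse embryos were dissected at E11.5, and at the later ages of E13.5 and E15.5 and of E17.5, and were dissociated. The labels state no transgene or treatment, and they do not give the number of embryos pooled in a library. Cells of the later ages were sorted for viability and those of E11.5 were not. Each age has 1 library except E15.5, whose 2 batches share 1 table. With 1 library an age, the values below carry no test between ages or between groups of cells, and age cannot be told apart from library or from the viability sort.

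The first neurons of the cortex settle above the dividing layer and form the preplate, which holds Cajal-Retzius cells and the future subplate. Radial precursors that line the ventricle give rise to them directly or through intermediate progenitors, which are marked by Eomes. Tbr1 is a T-box transcription factor of early-born glutamatergic neurons. Neurod2 and Neurod6 are basic helix-loop-helix factors of cortical projection neurons, and such factors bind E-boxes, sites of the form CANNTG. Slc17a6 encodes a vesicular glutamate transporter, and Mapt and Dcx encode microtubule-associated proteins of young neurons.

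The promoters of Tbr1, Neurod2 and Neurod6 are shown because Neurod2 and Neurod6 divide the E11.5 neurons and because the levels of all 3 genes differ between E11.5 and the later ages. Each run is the 250 bases before the start of the gene, read 5′ to 3′ on the gene's own strand from RefSeq on build GRCm38.p6, with every CANNTG in capitals.
Tbr1 (chr2:61804203-61804452, plus strand): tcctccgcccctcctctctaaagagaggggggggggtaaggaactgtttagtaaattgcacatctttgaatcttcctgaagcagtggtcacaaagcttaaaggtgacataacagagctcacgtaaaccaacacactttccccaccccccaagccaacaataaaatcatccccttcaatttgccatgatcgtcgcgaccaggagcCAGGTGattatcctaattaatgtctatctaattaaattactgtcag
Neurod2 (chr11:98329646-98329895, minus strand): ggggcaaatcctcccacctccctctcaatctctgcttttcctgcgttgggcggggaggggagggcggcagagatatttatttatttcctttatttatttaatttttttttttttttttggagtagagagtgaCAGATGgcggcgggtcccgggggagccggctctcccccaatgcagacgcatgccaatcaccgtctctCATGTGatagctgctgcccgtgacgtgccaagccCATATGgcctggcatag
Neurod6 (chr6:55681264-55681513, minus strand): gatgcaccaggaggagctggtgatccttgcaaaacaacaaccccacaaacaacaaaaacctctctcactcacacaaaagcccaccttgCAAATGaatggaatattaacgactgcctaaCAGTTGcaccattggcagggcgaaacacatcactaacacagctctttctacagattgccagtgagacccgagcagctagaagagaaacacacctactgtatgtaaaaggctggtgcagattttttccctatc
The Tbr1 window holds 1 such match, the Neurod2 window 3 and the Neurod6 window 2. CANNTG is its own reverse complement as a pattern, so 1 search covers both strands. Of 27025 genes with a promoter of this length, 66.0% hold at least 1 match, 31.7% at least 2 and 12.1% at least 3. A match describes the letters and shows no binding.

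The neurons held 418125 UMIs in all. Their median was 1992 UMIs a cell (593 to 5322), against 2216 in the other cells (517 to 12431), and 1287 genes a cell against 1406. None of the E11.5 barcodes recurred in the later cortical tables, and 1 pair of neurons had barcodes 1 base apart. Mesenchymal, endothelial and microglial markers were nearly absent, with 4, 2 and 1 UMIs over all 205 neurons, and 3 of 7, 5 of 6 and 6 of 7 of these markers were at 0. Hemoglobin RNA was present in 63.9% of neurons and 65.9% of the other cells, at 1495 and 1165 CPM (the UMIs of a gene over all UMIs of the group of cells, scaled to 1000000), and 9 neurons held 415 of its 625 UMIs in neurons. To gauge free RNA, 24 cells of the E11.5 table of all cells were used that lie outside the cortical table and have at least 5 UMIs of mesenchymal and endothelial markers. Intervals throughout are exact 95% intervals on counts (Poisson for a level, conditional binomial for a fold, Clopper-Pearson for a share) and cover counting error only.

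The rule used 12 genes, whose values are therefore a description. Tbr1 was found in 160 of the 205 neurons, up to 11 UMIs in a cell, at 892 CPM against 112 in the other cells. Dcx was found in 156 neurons at 789 CPM against 94.95. Slc17a6 was found in 88 neurons, at 309 CPM against 46.0, and Mapt in 72, at 282 against 28.0. Neurod2 and Neurod6 were each found in a minority, 48 and 51 neurons, at 208 and 263 CPM against 23.7 and 45.8. Among the precursor genes, Sox2 stood at 28.7 CPM against 480, Pax6 at 47.8 against 286, Hes5 at 23.9 against 287, Hes1 at 9.57 against 193 and Slc1a3 at 7.17 against 39.5. Eomes stood at 129 CPM against 258. The neuronal sum had a median of 5 and reached 19, and 40 neurons were at the limit of 2.

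Cells on either side of the limits differed by degrees. Stmn2, a tubulin-binding protein of growing axons, stood at 3027 CPM in the 40 neurons with a neuronal sum of 2 and at 1834 CPM in the 54 cells that missed the rule with a sum of 1. The precursor gene Sfrp1 stood at 319 and 773 CPM in the same cells. Their median depths were 1243 and 1038 UMIs. In the 54 neurons with 1 Eomes UMI Stmn2 stood at 3029 CPM, and in the 34 cells excluded for exactly 2 it stood at 3353 CPM. In the 49 neurons with a precursor sum of 1 it stood at 2836 CPM, and in the 13 cells excluded for a sum of 2 at 2199 CPM. Stmn2 was thus no lower just outside the limit on Eomes and was lower just outside the other limits.

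Many genes separated the neurons from the other cells. Of 8329 genes with at least 50 UMIs over the table, 914 (11%) were at least 2-fold higher in the neurons and 1469 (17.6%) at least 2-fold lower, with a median log2 fold of -0.09. The counts include the rule genes, with 6 neuronal ones called higher and 5 precursor ones lower. The limit pooled 418125 UMIs of neurons with 3496480 of other cells. A gene high only in neurons thus met it less readily, and the 2 counts cannot be set against each other. Outside the rule, the 12 highest include genes of the neuronal cytoskeleton, of adhesion and of synaptic vesicles, and the 12 lowest include precursor, cell cycle and metabolic genes. These were ranked by the bound of the fold's interval that lies nearer to 1. Among the highest, Mab21l1, Ncam2, Syt1, Nxph1 and Clmp had 25, 29, 28, 19 and 37 UMIs in the other cells. They met the limit of 50 UMIs only through their UMIs in the neurons.

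Mab21l1, a nuclear protein of the male-abnormal 21 family, led the ranking. It was found in 41 neurons, up to 5 UMIs in a cell, and stood at 163 CPM (126 to 206) against 7.15 (4.63 to 10.6), a 22.7-fold difference (14.2 to 37.6), or 12.99-fold where only neurons with no precursor UMI were taken. Most neurons thus had no UMI of it, which at this level and depth does not show absence. Of its 25 UMIs outside the neurons 13 lay in cells with 2 or more Eomes UMIs and 1 in the 606 radial precursors. Calb2, which encodes the calcium-binding protein calretinin, was found in 62 neurons with up to 14 UMIs in a cell, and stood at 428 CPM against 41.5, 10.3-fold higher (8.25 to 12.9). Ina, the intermediate filament protein alpha-internexin, was found in 144 neurons and stood at 1559 CPM against 154, 10.1-fold higher (8.99 to 11.3). Stmn2 was found in 192 of the 205 neurons and stood at 3518 CPM against 428, 8.23-fold higher (7.65 to 8.85). Dpysl3, a growth cone protein, was found in 89.8% of neurons and 24.4% of other cells, at 1502 and 180 CPM. The last 3 genes were detected in most of the neurons, and Mab21l1 and Calb2, at lower levels, in a minority.

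The other 7 of the 12 highest genes were found in 12.2 to 43.9% of the neurons. The adhesion gene Ncam2 was 15.3-fold higher (9.54 to 24.9) and was found in 18.5% of neurons. Syt1, a calcium sensor of synaptic vesicles, was 14.9-fold higher (9.22 to 24.6) and found in 16.6%. Nxph1, which encodes a secreted neurexin ligand, was 15.8-fold higher (8.85 to 29.2) and found in 12.2%. The adhesion gene Clmp was 12.2-fold higher (7.89 to 19.1), and Samd3 was 10.6-fold higher (7.86 to 14.3). Tmem163, a zinc transporter, was 10.3-fold higher (7.85 to 13.6), and the transcriptional co-repressor Runx1t1 was 10.5-fold higher (7.60 to 14.7). In the other 1209 cells each of these 7 genes was found in 1.24 to 6.04% of cells.

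At the low end stood Nr2e1, the orphan receptor Tlx of neural stem cells, with 8 UMIs over all neurons. It stood at 19.1 CPM (8.26 to 37.7) against 341 in the other cells, 17.8-fold lower (9.01 to 41.4). Sfrp1, a secreted Wnt modulator of ventricular precursors, stood at 189 CPM (150 to 235) against 1694, 8.97-fold lower (7.18 to 11.3). Ccnd1, the G1 cyclin D1, stood at 81.3 CPM against 805, 9.90-fold lower (7.07 to 14.3), and Ldha, lactate dehydrogenase A, at 136 CPM against 1051, 7.71-fold lower (5.93 to 10.2). Pbk, Aurkb, Knstrn, Hells and Rrm2, which serve mitosis or DNA replication, were 18.0-, 19.3-, 12.2-, 11.3- and 8.38-fold lower. Gas1 and Gsta4 were 12.2- and 12.02-fold lower. Slc25a13, a mitochondrial aspartate-glutamate carrier, had 0 UMIs in the neurons and 198 in the other cells, which makes it at least 7.89-fold lower at a floor of 3 UMIs over the group. Without the 30 neurons that had 5 or more UMIs of G2/M genes, Ldha and Rrm2 stood at 0.0769 and 0.0720 of their level in the other cells and Aurkb at 0. After thinning to 1000 UMIs Gas1 stood at 0.148 of that level.

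**Figure D1:**
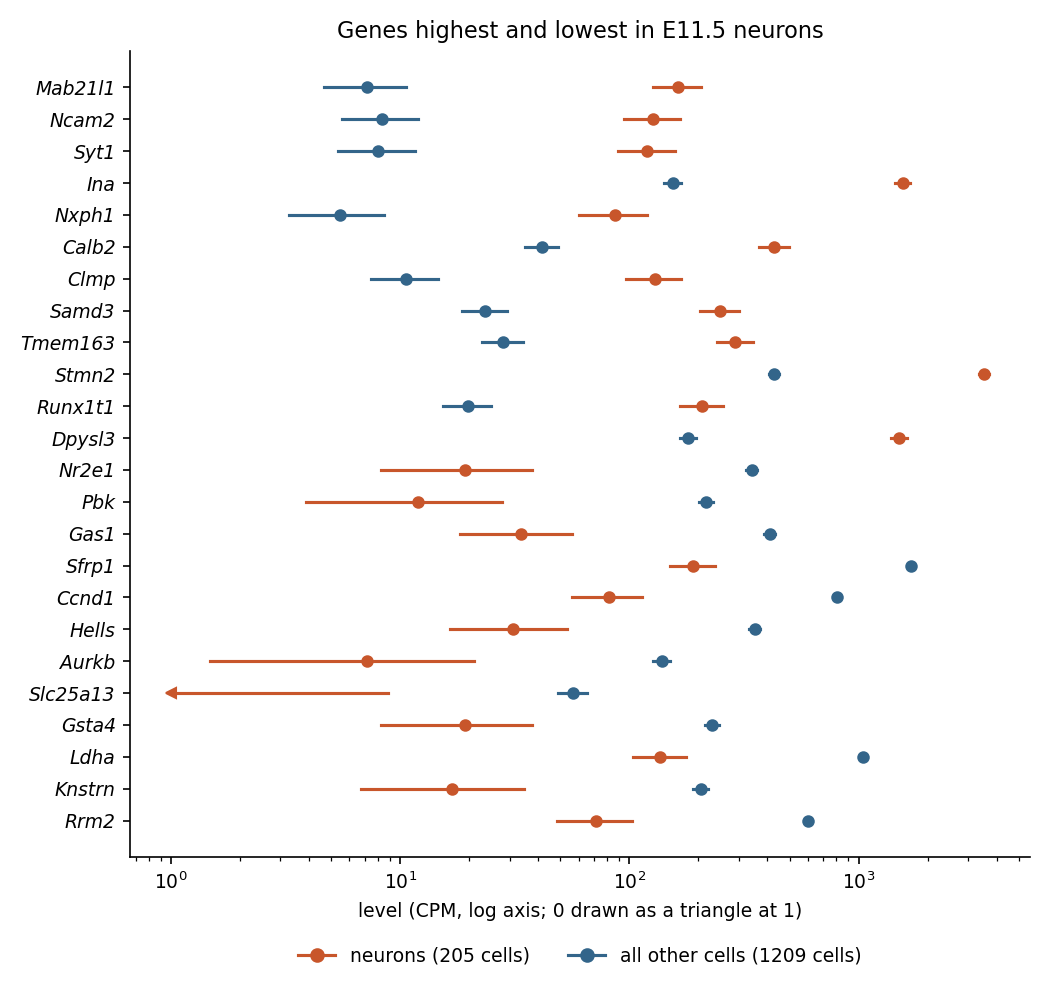
Levels of the 12 highest and 12 lowest genes in the 205 neurons (orange) and the 1209 other cells (blue) of E11.5, in CPM on a log axis, with exact 95% Poisson intervals as lines. The neurons lie to the right for the upper 12 genes, from Mab21l1 at 163 against 7.15 CPM to Dpysl3 at 1502 against 180, and to the left for the lower 12.

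Among genes of the neuronal cytoskeleton, growth cone and migration, 20 of 24 were at least 2-fold higher and 0 lower, with a median log2 fold of 2.06. Tuba1a, the main alpha-tubulin of young neurons, stood at 16081 CPM against 3753, and Tubb3, the neuronal beta-tubulin, at 5632 against 1042. The microtubule-associated protein gene Map1b was 3.71-fold higher (3.49 to 3.95). Marcks and Marcksl1, actin regulators also used by precursors, differed little, at 1.11-fold (1.02 to 1.21) and 1.27-fold (1.18 to 1.36). Together the 24 genes made up 47921 CPM in the neurons and 12645 in the other cells. The counts of this list and of those below stand beside shares of 11% higher and 17.6% lower among all 8329 genes.

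All 16 measured genes of synapse, secretion and channels were at least 2-fold higher, with a median log2 fold of 2.36. Scg3, a protein of secretory granules, was 6.39-fold higher (5.24 to 7.79), and the glutamate receptor subunit Gria2 was 4.20-fold higher (3.30 to 5.32). The G protein subunits Gng3 and Gng2 were 3.74- and 3.71-fold higher and Scg5 was 2.57-fold higher. Another 7 genes of the list had fewer than 50 UMIs over the table and were not counted. Of 15 measured guidance and adhesion genes 11 were at least 2-fold higher and 0 lower. The cell adhesion molecule Nrcam was 9.21-fold higher (7.12 to 11.9), the Slit receptor Robo2 4.52-fold (3.54 to 5.76) and the ephrin receptor Epha3 2.49-fold (1.78 to 3.43). Efna5 and Flrt3 stood at 1.61-fold (1.03 to 2.45) and 0.978-fold (0.641 to 1.44).

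RNA-binding proteins and pan-neuronal transcription factors were high in the same direction. Of 13 RNA-binding genes 9 were at least 2-fold higher, led among the most abundant by Elavl3 at 4.68-fold (4.11 to 5.32), while Ptbp2, a splicing repressor, stood at 0.936-fold (0.763 to 1.14). Of 12 transcription factors 9 were at least 2-fold higher. Klf7, a factor of axon growth, was 5.91-fold higher (4.63 to 7.52), Myt1 3.71-fold (2.88 to 4.75) and Bcl11a 2.80-fold (2.39 to 3.27). Nfib stood at 1.23-fold (0.932 to 1.59) over all neurons and divided them, as given further on.

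Neurogenic genes, which act in the passage from precursor to neuron, were mixed, with 2 of 10 at least 2-fold higher and 4 at least 2-fold lower. Neurod1, a helix-loop-helix factor of differentiation, stood at 433 CPM in the neurons, at 470 in the 203 cells with 2 or more Eomes UMIs and at 4.61 in radial precursors. Neurog2, a proneural factor that acts before it, was 3.14-fold lower in the neurons than in the other cells (2.12 to 4.84). Hes6 and Gadd45g were 1.60- and 2.22-fold lower. Of 10 Notch pathway genes 1 was at least 2-fold higher and 3 lower, beside 11% and 17.6% of all 8329 genes. The one was Dner, a neuronal transmembrane protein with Notch-like repeats, at 335 CPM against 36.9 (9.08-fold, 7.09 to 11.6), and the ligand gene Dll3 stood at 1.98-fold (1.47 to 2.64).

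Radial precursor genes outside the rule were at least 2-fold lower in 18 of 19 cases and higher in 0, with a median log2 fold of -2.12. Fabp7, a fatty acid binding protein of radial cells, was 7.52-fold lower (5.44 to 10.7), the Id-family repressor Id4 4.35-fold (3.60 to 5.30) and the filament gene Vim 2.51-fold (2.20 to 2.88). Glycolysis and hypoxia genes were at least 2-fold lower in 13 of 19 cases and higher in 0, with a median log2 fold of -1.83, or -1.56 with Gapdh, which had 0 UMIs in the neurons, at its bound; near-identical copies of Gapdh make its count uncertain. Mif, a cytokine gene counted with this list, was 3.79-fold lower (3.26 to 4.43), Tpi1 2.95-fold, and Pkm, pyruvate kinase, 1.70-fold (1.54 to 1.89). Ribosomal protein genes had a median log2 fold of -0.69 over 78 genes, and made up 34923 CPM in the neurons and 55513 in the other cells.

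All 26 S phase genes and all 26 G2/M genes were at least 2-fold lower in the neurons, with median log2 folds of -2.56 and -2.42. Top2a, the DNA topoisomerase of mitosis, stood at 144 CPM against 762, and Mki67 at 78.9 against 480. The remaining signal was uneven among cells. At least 5 UMIs of G2/M genes were found in 30 neurons (14.6%) and 906 other cells (74.9%), and those 30 neurons held 430 of the 624 G2/M UMIs of the 205. Another 65 neurons had 0. Of 7 cell cycle inhibitors none was at least 2-fold higher; Cdkn1c, the inhibitor p57, stood at 497 CPM against 319 (1.56-fold, 1.34 to 1.81), and the antiproliferative gene Btg2 was 2.77-fold lower (1.65 to 4.997).

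Immediate early and heat shock genes, often read as signs of handling, had 2 of 8 members at least 2-fold higher, beside 11% of all 8329 genes. These 2 were Dusp1 at 2.76-fold (1.78 to 4.18) and Egr1 at 4.93-fold (3.10 to 7.71). Fos, a transcription factor gene of the same response, stood at 1.96-fold (1.35 to 2.80) and Jun at 0.592-fold (0.427 to 0.801). The median log2 fold of the 8 was 0.16, and mitochondrial genes made up 15125 CPM in the neurons and 13206 in the other cells. The part of handling in these values was not tested.

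**Figure D2:**
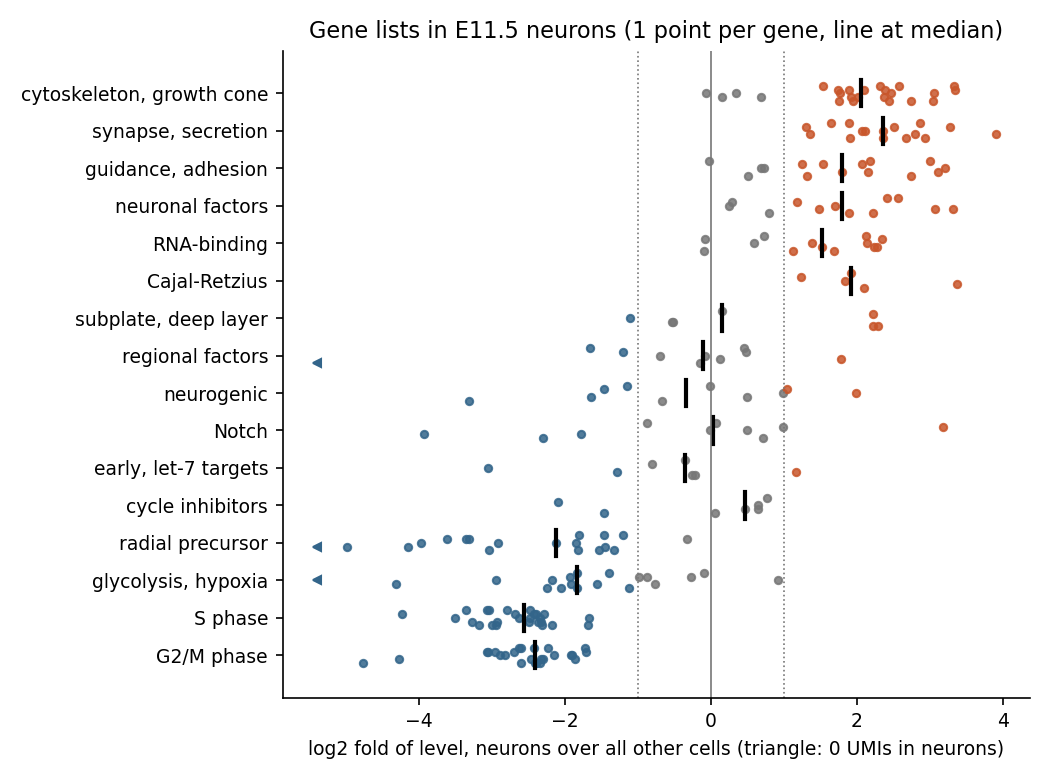
Log2 fold of the level in the 205 neurons over the 1209 other cells for the genes of 16 lists with at least 50 UMIs, 1 point per gene, orange for at least 2-fold higher, blue for at least 2-fold lower and grey between, with a line at each list's median and dotted lines at 2-fold. Cytoskeletal and synaptic genes lie at medians of 2.06 and 2.36, S phase and G2/M genes at -2.56 and -2.42, and regional, neurogenic and Notch genes spread to both sides of 0.

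The other 1209 cells were not of 1 kind, and the genes high in the neurons were graded among them. Ina stood at 1559 CPM in the neurons, 510 in the 203 cells with 2 or more Eomes UMIs and 467 in 41 cells whose neuronal and precursor sums both reached 2. It stood at 168 in 359 cells with too few UMIs of either kind and at 16.1 in 606 radial precursors. Mab21l1 was at 163, 19.8, 10.3, 18.9 and 0.461 CPM in the same order. The median depths of the 5 classes were 1992, 2405, 4688, 1123 and 2964 UMIs. The neurons had the highest level of both genes. The cells with both kinds of marker were the deepest, and the part of doublets in them was not tested.

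Cajal-Retzius cells are the Reln-secreting pioneer neurons at the cortical surface, and 5 of their 10 marker genes were abundant enough to be counted. All 5 were at least 2-fold higher in the neurons. Beside Calb2 these were the helix-loop-helix gene Nhlh2 at 3.78-fold (3.09 to 4.61), the LIM-homeobox gene Lhx5 at 4.29-fold (2.84 to 6.39), Ebf2 at 3.58-fold (2.56 to 4.97) and the calcium channel subunit gene Cacna2d2 at 2.36-fold (1.09 to 4.70). Nhlh2 was not particular to them, at 352 CPM in the neurons and 362 in the cells with 2 or more Eomes UMIs. The genes that define mature Cajal-Retzius cells were scarce. Reln was found in 15 neurons with 19 UMIs, Lhx1 in 4 with 8 UMIs, Trp73 in 1 with 2 UMIs, Ebf3 in 3 with 3 UMIs, and Ndnf in 0, with an upper bound of 1.78% on the share of cells with a UMI.

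Of 12 subplate and deep-layer markers 7 could be counted, and they did not differ in 1 direction. Bcl11b, the factor Ctip2 of subcortical projection neurons, was found in 68 neurons and was 4.65-fold higher (3.75 to 5.73). Foxp2 was 4.86-fold higher (3.66 to 6.43) and the subplate gene Nr4a2 4.65-fold higher (2.55 to 8.24). Fezf2, which specifies subcerebral neurons and is also present in precursors, stood at 81.3 CPM against 118, Tle4 at 98.1 against 88.4 and Lmo3 at 9.57 against 13.7. Sox5 was 2.16-fold lower (1.31 to 3.83). Of 4 measured upper-layer markers 2 were at least 2-fold higher, Pou3f1 at 10.97-fold (6.77 to 18.0) on 42 UMIs and Pou3f2 at 2.11-fold (1.65 to 2.67). Pou3f3 stood at 0.918-fold (0.711 to 1.17) and Cux1 at 0.670-fold (0.469 to 0.934), and 32.2% of neurons and 33.4% of other cells had at least 2 UMIs of this panel.

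Neurons of other regions were looked for with 2 further panels. Of 4 measured GABAergic genes 1 was at least 2-fold higher, Gad2 with 15 UMIs in 10 neurons (3.30-fold, 1.69 to 6.14). Dlx1 and Dlx2 stood at 38.3 and 23.9 CPM against 47.5 and 43.5. Dlx5, Dlx6, Dlx6os1, Slc32a1 and Sp9 had 2 to 8 UMIs each in the neurons, and Gad1, Isl1 and Lhx8 had 0. Of 3 measured diencephalic or other non-cortical glutamatergic genes 2 were at least 2-fold higher. Lhx9, a LIM-homeobox gene, was found in 72 neurons at 227 CPM against 44.6, and Barhl2, a homeobox gene, in 28 at 86.1 against 14.6. Both were also present in cells with 2 or more Eomes UMIs, Lhx9 at 180 CPM. The thalamic gene Tcf7l2 was 3.59-fold lower on 3 UMIs, and Gbx2, Shox2 and Olig3 had 0 UMIs in the neurons.

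Of 10 measured regional factors of the telencephalon 1 was at least 2-fold higher, 3 were at least 2-fold lower and 6 lay between. Among all 8329 genes 11% were higher and 17.6% lower by the same limit. Emx1 and Emx2, which mark the dorsal cortex, stood at 1.09-fold (0.825 to 1.41) and 0.945-fold (0.776 to 1.14), and Lhx2 at 1.40-fold (1.20 to 1.62). Lmo4, a LIM-domain co-regulator, was 3.45-fold higher (2.80 to 4.23).

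Cell by cell, the panels overlapped. At least 2 UMIs of Cajal-Retzius markers were found in 96 neurons, 46.8% (39.8 to 53.9%), of subplate and deep-layer markers in 78, 38.0% (31.4 to 45.1%), of diencephalic markers in 27, 13.2% (8.86 to 18.6%), and of GABAergic markers in 11, 5.37% (2.71 to 9.40%). Both of the first 2 panels were met in 43 neurons, and 63 met none of the 4. The other cells of the table met them in 12.8, 30.9, 4.63 and 10.3%. The 24 gauge cells, at a median of 2611 UMIs, met them in 8.33, 20.8, 8.33 and 8.33%. After thinning every cell to 1000 UMIs, which kept 186 neurons and 1013 other cells, the neurons met them in 22.6, 17.2, 5.91 and 3.76%, and the gauge cells in 0, 15.8, 0 and 5.26% of 19 cells. The Cajal-Retzius share of the neurons lay above the interval of the gauge cells (1.03 to 27.0%, and up to 17.6% when thinned). Of the 462 UMIs of this panel in the neurons, 179 were of Calb2 and 147 of Nhlh2, which was not particular to the neurons. Their deep-layer, diencephalic and GABAergic shares lay within the wide intervals of those 24 cells. For these panels the shares therefore cannot tell expression apart from free RNA. By summed level, deep-layer markers stood at 835 CPM in the neurons and 278 in the gauge cells, on 349 and 21 UMIs. Diencephalic markers stood at 325 and 106 CPM, on 136 and 8 UMIs. GABAergic markers went the other way and were lower in the neurons than in the gauge cells. The part of free RNA in these levels was not tested.

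Neurod2 and Neurod6 divided the neurons. At least 1 UMI of either was found in 73 neurons, 35.6% (29.1 to 42.6%), and in none of the other 132, at median depths of 2244 and 1822 UMIs. Beyond these 2 genes, which made the division, 118 of 4320 genes with at least 20 UMIs (2.73%) were at least 2-fold higher in the 73 and 164 (3.80%) in the 132. The limit pooled unequal totals of 159235 and 258890 UMIs, so these counts cannot be set against each other. Transcription factors stood at both ends. The division was chosen after the values were seen, so its folds are a description.

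Ebf2, of the Cajal-Retzius panel, and Bcl11b, of the deep-layer panel, were among the genes that stood higher in the 73 neurons. Ebf2 had 47 UMIs in 29 of them and 7 UMIs in 6 of the 132, at 295 and 27.0 CPM (10.9-fold, 4.90 to 28.6). Zbtb18, a zinc finger repressor of cortical neurons, had 20 UMIs in 15 cells and 3 in 3 (a ratio of 10.8, 3.21 to 57.0). Nfib stood at 314 and 61.8 CPM (5.08-fold, 2.85 to 9.56), Bcl11b at 553 and 201 CPM (2.75-fold, 1.93 to 3.95), Tcf4 at 377 and 151 CPM and Emx1 at 251 and 92.7 CPM. Each of Ebf2, Nfib, Bcl11b and Emx1 was also found in 6 to 31 of the 132.

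Other transcription factors stood higher in the 132 neurons without Neurod2 and Neurod6. Mab21l1 had 67 UMIs in 40 of them and 1 UMI in 1 of the 73, a ratio of 41.2 (7.15 to 1652). Pbx3, a homeobox cofactor, had 70 UMIs in 39 cells and 3 in 3 (14.4-fold, 4.71 to 71.3). Foxp2, also of the deep-layer panel, had 75 UMIs in 34 cells and 7 in 4 (6.59-fold, 3.05 to 16.95), and Zic1, a zinc finger gene of neural patterning, 45 UMIs in 28 and 3 in 2 (9.23-fold, 2.96 to 46.4). Foxp1 was 7.53-fold higher (2.76 to 28.7) and Meis2 2.21-fold higher (1.58 to 3.13). Thinned to 1000 UMIs, Pbx3 was found in 24.8% of 117 such neurons and 1.45% of 69 with Neurod2 or Neurod6, and Ebf2 in 4.27 and 24.6%.

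The genes of the 132 were then counted in single neurons. Of the 41 neurons with Mab21l1, 18 had Pbx3, 17 had Foxp2, 7 had Zic1, 1 had Ebf2, 1 had Neurod2 and 1 had Neurod6. Taken over all 205 neurons, 86 had a UMI of Mab21l1, Pbx3, Zic1 or Foxp2 and none of Neurod2 or Neurod6, 64 had the reverse, 9 had both and 46 had neither. In the gauge cells Mab21l1 was at 0, Pbx3 was found in 8.33% (1.03 to 27.0%) and Foxp2 in 12.5% (2.66 to 32.4%), against 20.5% and 18.5% of all neurons.

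Several other genes differed less between the 73 and the 132. Tbr1 stood at 810 CPM in the 73 and 942 in the 132 (0.860-fold, 0.689 to 1.07). The rule uses Tbr1, and the 132 had to pass it without Neurod2 and Neurod6, so these levels are set in part by the choice of cells. Tubb3 stood at 5539 and 5690 CPM and Lhx9 at 232 and 224 CPM. Emx2 stood at 289 and 286 CPM. Calb2 stood at 521 and 371 CPM (1.41-fold, 1.03 to 1.91). Top2a stood at 157 and 135.2 CPM. All deep-layer markers together stood at 879 and 807 CPM. GABAergic markers met the 2-UMI limit in 5 of the 73 and 6 of the 132, and diencephalic markers in 9 and 18.

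**Figure D3:**
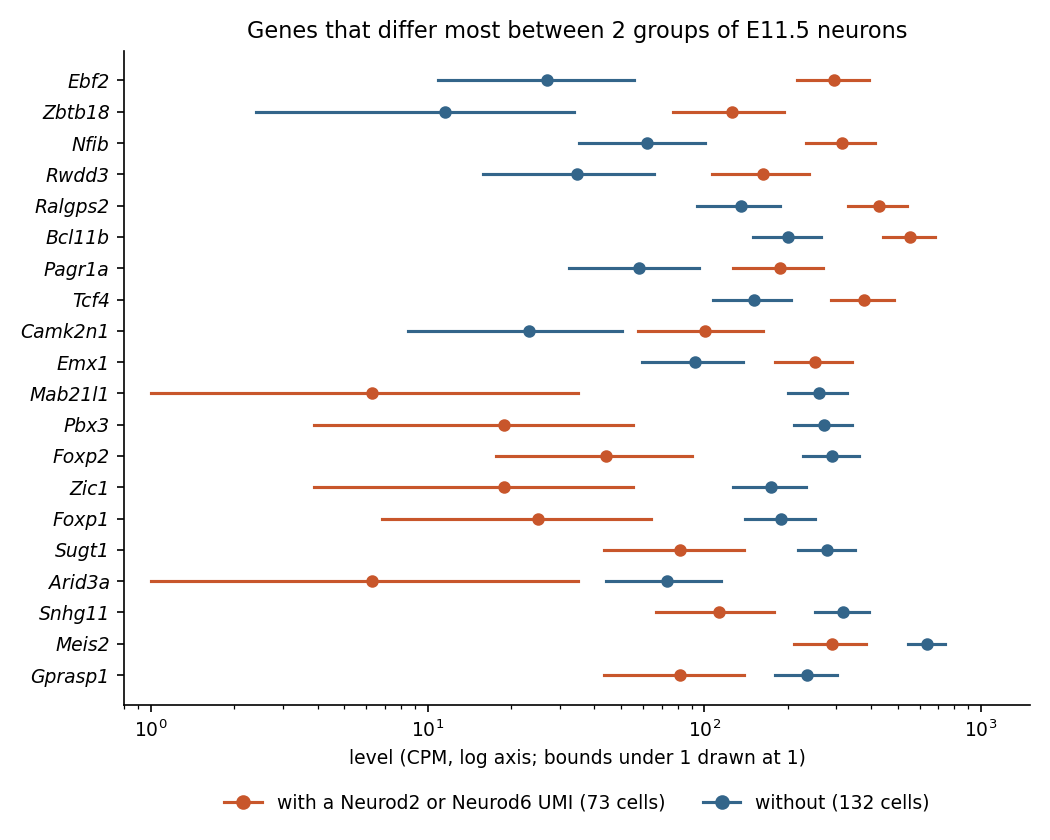
Levels in CPM on a log axis of the 10 genes furthest each way between the 73 neurons with a Neurod2 or Neurod6 UMI (orange) and the 132 without (blue), with exact 95% Poisson intervals as lines. Ebf2 lies at 295 and 27.0 CPM and Mab21l1 at 6.28 and 259 CPM, and the intervals meet for none of the 20 genes, which were chosen for their difference.

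The same rule applied to the E11.5 table of all cells found 293 neurons, of which the authors kept 205 as cortical and left out 88, or 30.0% (24.8 to 35.6%). Among all 1994 cells with at least 500 UMIs there, 29.1% were left out. The 88 had a median of 1981 UMIs, against 1992 in those kept. Of 5564 genes with at least 20 UMIs, 328 (5.90%) were at least 2-fold higher in the kept neurons and 201 (3.61%) in those left out. The limit pooled 205 kept and 88 left-out neurons, so these counts cannot be set against each other. By the marker panels, most left-out neurons fell into 2 groups. Of the 88, 57 had at least 2 UMIs of GABAergic genes, 24 had at least 2 UMIs of Trp73, Lhx1, Lhx5, Reln and Cacna2d2, 2 had both and 9 neither. The 5 genes were chosen after their values were seen, and 23 of the 205 kept neurons met the same limit. By the whole Cajal-Retzius panel 29.5% of the left-out and 46.8% of the kept neurons had at least 2 UMIs. Calb2 made up 11 of the panel's 237 UMIs in the left-out neurons and 179 of 462 in the kept.

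GABAergic genes were far higher in the neurons left out. Gad2, glutamate decarboxylase, was found in 49 of the 88 and 10 of the 205, at 715 and 35.9 CPM (19.9-fold, 11.7 to 36.6). Dlx5 was found in 40 and 4, at 353 and 11.96 CPM, Dlx6os1 in 41 and 5, at 700.1 and 19.1 CPM, and Dlx2 in 29 and 9, at 470.1 and 23.9 CPM. Isl1, a LIM-homeobox gene of the ventral forebrain, had 51 UMIs in 32 of the left-out neurons and 0 in those kept, at least 36.3-fold higher at a floor of 3 UMIs over the group. The neuropeptide gene Pnoc stood at 174 CPM against 2.39.

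The 5 genes that define the second group were chosen for their values and are given here over all 88 left-out neurons. Trp73, the p53-family factor of Cajal-Retzius cells, was found in 13 of the 88 left-out neurons with 21 UMIs and in 1 of the 205 kept. All 13 had Tbr1 and 8 had Reln. Lhx1 was found in 19.3% (11.7 to 29.1%) of left-out and 1.95% (0.534 to 4.92%) of kept neurons, and Cacna2d2 in 22.7% and 4.39%. Reln was found in 15.9% (8.98 to 25.3%) and 7.32% (4.15 to 11.8%), and Lhx5 in 17.05% and 12.2%. By level, Trp73, Lhx1 and Cacna2d2 were 22.4-fold (5.48 to 197), 12.02-fold (5.61 to 29.5) and 8.55-fold (4.34 to 18.4) higher in the neurons left out, Reln 2.36-fold higher (1.21 to 4.64) and Lhx5 1.096-fold (0.606 to 1.92). In the 24 gauge cells these 5 genes were at 0, with an upper bound of 14.2% of cells for each, and the part of free RNA was not tested. Cdkn1a, the cell cycle inhibitor p21, was found in 21 left-out and 5 kept neurons, at 419 and 16.7 CPM.

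Some genes were instead nearly limited to the kept neurons. Calb2 had 179 UMIs in 62 of them and 11 UMIs in 1 of the 88. Gjd2, the neuronal gap junction protein connexin 36, had 41 UMIs in 35 kept neurons and 0 in those left out, at least 6.40-fold higher. Uncx, a homeobox gene, had 51 and 1 UMIs, Nxph4 97 and 5, Rasgrp1 75 and 4, and Rnd2, a small GTPase of migrating neurons, 121 and 9. Lhx9 was found in 35.1 and 13.6% and Barhl2 in 13.7 and 1.14%. Calb2 and Trp73, both on the panel of Cajal-Retzius markers, thus went opposite ways.

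**Figure D4:**
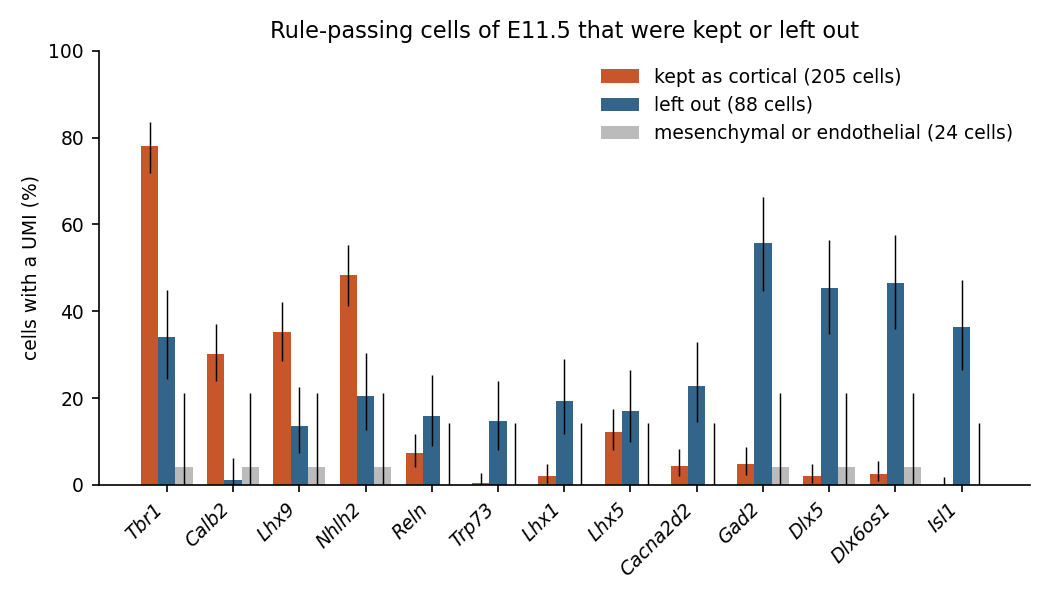
Percent of cells with at least 1 UMI of 13 genes among the 205 rule-passing E11.5 neurons kept as cortical (orange), the 88 left out (blue) and the 24 mesenchymal or endothelial cells used to gauge free RNA (grey), with exact 95% Clopper-Pearson intervals. Calb2 was found in 30.2% of kept and 1.14% of left-out neurons, and Gad2 in 4.88% and 55.7%.

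At the later ages the same rule took in most cells of the cortical tables, 659 of 1125 (58.6%) at E13.5, 2240 of 2955 (75.8%) at E15.5 and 737 of 880 (83.8%) at E17.5. Median depths were 2372, 2648.5 and 1956 UMIs. A Neurod2 or Neurod6 UMI was found in 99.7, 99.7 and 96.3% of these cells, against 35.6% at E11.5. With both genes taken out of the rule, the shares were 30.9% of 191 cells (24.4 to 38.0%) at E11.5, 99.6% of 522 at E13.5, 99.7% of 1926 at E15.5 and 95.8% of 649 at E17.5. As a gauge of free RNA, precursor cells with no UMI of the other neuronal genes or of Eomes had a Neurod2 or Neurod6 UMI in 1.69% (0.778 to 3.19%) of 531 cells at E11.5, 20.8% of 130 at E13.5, 37.6% of 125 at E15.5 and 35.5% of 31 at E17.5. After thinning to 1000 UMIs the neurons chosen without the 2 genes had one in 22.9, 98.6, 97.6 and 93.3% of cells and the precursors in 0.402, 7.69, 15 and 22.6%.

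The rule genes differed between ages in opposite ways. Tbr1 stood at 892 CPM (804 to 987) at E11.5 and at 420, 297 and 180 CPM at the later ages. Slc17a6 stood at 309 CPM and then at 65.7, 49.8 and 59.4. Neurod6 stood at 263 CPM (216 to 317) and then at 3924, 3568 and 2734, and Neurod2 at 208 CPM and then at 1480, 1242 and 1114. Mapt stood at 282 CPM and then at 863, 1156 and 1536, while Dcx lay between 616 and 789 at all ages. Since the rule uses these genes, and the 132 neurons of E11.5 without Neurod2 or Neurod6 had to pass it by the other 4, these levels are set in part by the choice of cells.

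Of 9031 genes with at least 100 UMIs over the neurons of the 4 ages, 282 (3.12%) were at least 2-fold higher at E11.5 than at each later age and 904 (10.0%) at least 2-fold lower. The limit pooled all ages, and the neurons of E11.5 held 418125 UMIs, against 1810312, 6628487 and 1648651 later. A gene high only at E11.5 thus met it less readily than one high only later. The 2 counts therefore cannot be set against each other. Crabp2, a retinoic acid binding protein, stood at 1112 CPM at E11.5 and at 9.94, 4.38 and 1.82 CPM afterwards. It was not limited to neurons, with 497 CPM in the other cells of E11.5. Lhx9 stood at 227 CPM and then at 12.2, 7.54 and 1.82, and Calb2 at 428 CPM and then at 16.0, 18.9 and 40.0. Samd3 had 104 UMIs at E11.5 and 0, 0 and 4 later, and met the limit through its E11.5 UMIs. Tmem163, Ebf1, Pbx3, Etv1, Foxp2 and Nhlh2 were also among the 12 highest, with Nhlh2 at 352 CPM and then at 45.3, 33.2 and 33.4. Barhl2 stood at 86.1 CPM at E11.5 and at most at 1.105 later, and Ebf2 at 129 CPM and at most at 0.552.

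Genes that set the neurons apart at E11.5 were in part as high or higher later. Of the 12 genes that stood highest against the other E11.5 cells, 5 were at least 2-fold above every later age, which were Calb2, Ina, Ncam2, Samd3 and Tmem163. Ina stood at 1559 CPM and then at 768, 714 and 446. Clmp was at least 2-fold below, at 129 CPM against 318, 288 and 317. Stmn2 and Dpysl3 differed little, at 3518 and 1502 CPM at E11.5 and at 2802 to 2936 and 1440 to 1607 CPM later. Mab21l1 had 68 UMIs at E11.5 and 0, 0 and 6 later. It had too few UMIs over the 4 ages to be among the 9031 genes, so the 5 leave it out.

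Other genes stood far lower at E11.5 than at each later age. Nfix, a nuclear factor I gene, stood at 4.78 CPM and then at 889, 962 and 673, and Dab1, which relays the Reln signal inside migrating neurons, at 23.9 CPM and then at 514, 545 and 513. Id2 stood at 71.7 CPM and then at 1122, 1753 and 1671. Zbtb18 stood at 55.0 CPM and then at 476, 533 and 624. Bcl11b and Fezf2 were lower at E11.5 (335 and 81.3 CPM) than at E13.5 (1103 and 479) and E15.5 (683 and 521), and at E17.5 stood at 173 and 110 CPM, so they did not follow 1 direction with age.

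**Figure D5:**
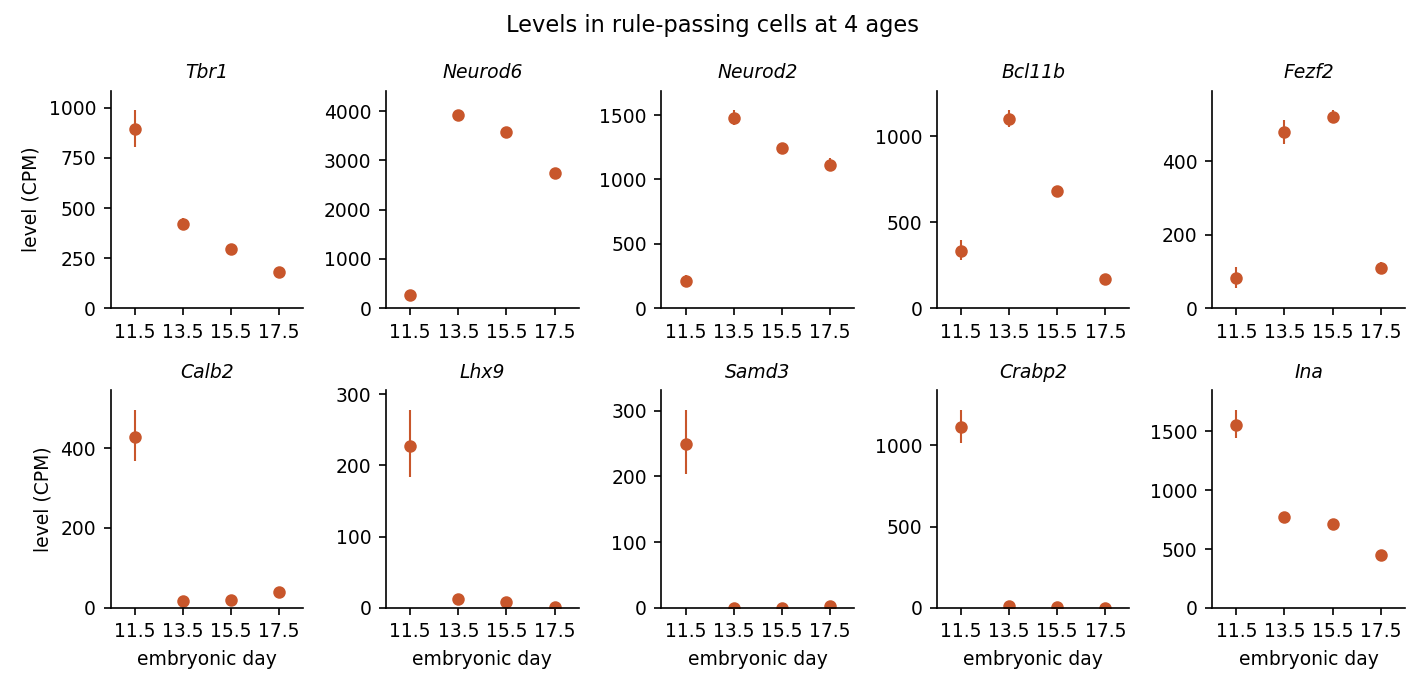
Levels in CPM (linear axes from 0) of 10 genes in the cells that pass the rule at E11.5 (205 cells), E13.5 (659), E15.5 (2240) and E17.5 (737), with exact 95% Poisson intervals, 1 library or table an age. Tbr1, Ina, Calb2, Lhx9, Samd3 and Crabp2 are highest at E11.5, Neurod6 and Neurod2 are lowest there, and Bcl11b and Fezf2 peak at E13.5 and E15.5.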

How the data were processed

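The deposited values are raw UMI counts per gene and cell, from Drop-seq, per the labels, in 1 table of every cell and 1 of cortical cells for each age. The genome build was mm10, per the submitters' processing notes. How cortical cells were chosen, and with which aligner, annotation and counter, was not given in the sources used here. For this account 5 tables were read, the 4 cortical ones and the E11.5 one of all cells. Cells under 500 UMIs were left out (4 of 1418 at E11.5). No doublet caller was run.

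UMIs were summed over a group of cells and divided by the group's total (CPM). A fold is a ratio of such levels, called at 2-fold, for genes with at least 50 UMIs over the table (20 within the neurons and against those left out, 100 over ages). With 1 library an age no p-value is given. Cells were thinned to 1000 UMIs by sampling without replacement (seed 1). Fold intervals were tested on simulated data drawn as independent Poisson counts, which the intervals assume. The simulation left out any clustering of UMIs within cells, so it does not show coverage in these data. Python 3.11.15, numpy 2.4.6, scipy 1.17.1, pandas 2.3.3 and matplotlib 3.10.9 were used.

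The neurons and the gene lists were chosen with earlier results of these data known. Named genes are the 12 furthest each way without rule, predicted, hemoglobin and mitochondrial genes, the up to 5 members of each list with most UMIs, all members of 4 marker panels and the rule genes. Dusp1, Egr1, Gapdh and the genes named within the neurons, against those left out and across ages were chosen after their values were seen. Panels were counted at 2 or more UMIs. Alternatives were other limits of the rule, depth thinning, other comparison cells, per-cell averaging, other gene filters and other totals. The 2 E15.5 batches share a table and were used together. Some genes of the lists are not reported here.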

Additional observations from a re-analysis of the deposited data

How the results depend on the processing

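Each result rests on 1 library, so the alternatives change the processing and not the sample. No paired analysis was possible because each age has 1 library or table and no replicate numbers join them. The neurons numbered 186 with at least 1000 UMIs, 165 with a neuronal sum of 3 or more, 156 with a precursor sum of 0 and 193 when the rule read thinned counts. Only 140 of those 193 were among the 186 neurons deep enough to be thinned, so the cells chosen changed more than their number. The genes at least 2-fold higher numbered 433 after thinning to 1000 UMIs, 569 with at least 100 UMIs and 2495 with 1 UMI in each group, against 914, and those lower numbered 812 after thinning, against 1469; fewer or more genes could be counted there (4774, 6290 and 12025, against 8329). With 1 UMI in each group 57.2% of the called genes were higher, against 38.4%. After thinning, the panel shares were 22.6% (Cajal-Retzius), 17.2% (deep layer) and 5.91% (diencephalic), and 25.8% of neurons had a Neurod2 or Neurod6 UMI. Leaving out neurons with GABAergic UMIs made that panel's share 0% by construction. The share of rule-passing cells left out by the authors was 24.3% with a neuronal sum of 3 or more. On thinned counts 65.5% of E13.5 and 81.5% of E15.5 cells passed the rule. The other 58 counts and shares stayed within 1.5 times or within their interval, and no fold of the 24 genes named first, or of 10 genes that divide the neurons, changed direction. Settings that left out neurons with G2/M or hemoglobin UMIs, and those for the left-out and Neurod2 or Neurod6 shares, were chosen after seeing the data. Against radial precursors alone the folds of the high genes were larger, 353 for Mab21l1 and 54.9 for Stmn2. With a precursor sum of 0 required, the neurons left out joined the other cells and Mab21l1 was 12.99-fold higher. Depth limits what can be said of Reln, Trp73 and other genes with few UMIs.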
